A study of Homo sapiens with 24 samples.

Results

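The effect of METTL3 depletion was compared between 2 castration-resistant prostate cancer cell lines, LNCaP:C4-2 and 22Rv1, in cells given the synthetic androgen R1881. The comparison used 12 of the 24 RNA-seq libraries of the knockdown experiment, those with R1881, with 3 libraries in each of 4 groups. For every gene the change with siMETTL3 against siSCR was taken on the log2 scale in each line, and the change in LNCaP:C4-2 was subtracted from the change in 22Rv1, so that a positive difference is a change that lay higher in 22Rv1. The genes that changed in the same direction in both lines were described beside those that differed. The groups were LNCaP:C4-2 with siSCR and R1881, LNCaP:C4-2 with siMETTL3 and R1881, and the same pair in 22Rv1. siSCR is a pool of non-targeting siRNAs and siMETTL3 a pool of siRNAs against METTL3, and the sequences of both are not given in the sources used here. All cells were grown in medium with charcoal-stripped serum, which is low in steroids, transfected, transfected again after 48 h and kept with 1 nM R1881 for 72 h. The other 12 libraries, which received ethanol as vehicle in place of R1881, were used as a second setting of the same difference. LNCaP:C4-2 is a derivative of the androgen-dependent line LNCaP, and 22Rv1 is a line from a prostate xenograft. Each line is a single line, so that a difference between them is a difference between these lines and not between classes of tumour.

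METTL3 is the catalytic subunit of the complex that methylates adenosine at the N6 position (m6A) in messenger RNA, together with METTL14, WTAP and other subunits. Reader proteins bind the mark and affect the splicing, translation and decay of the marked transcripts, and the demethylases FTO and ALKBH5 remove it. R1881 acts as an androgen and raises the expression of target genes such as KLK3, which encodes prostate-specific antigen, and FKBP5, which encodes a co-chaperone of steroid receptors.

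The R1881 libraries held 15716224 to 21030473 counted fragments, with a median of 17994145, and 3 counts, taken as the detection floor, equalled 0.143 to 0.191 CPM, the counts of a gene scaled to library size. Expression is given below as CPM after TMM normalisation, always in the order of replicates 1, 2 and 3. The labels matched the data on R1881, since mean KLK3 was 324 CPM in the LNCaP:C4-2 siSCR libraries with R1881 against 19.9 CPM in vehicle, and FKBP5 was 933 against 86.3 CPM. In 22Rv1, FKBP5 was 1810 against 192 CPM, whereas KLK3 stood at 6.43 CPM with R1881 and 6.93 CPM in vehicle. Luminal prostate markers were present in every library, with a sum of 5710 to 6840 CPM in LNCaP:C4-2 and 2050 to 2180 CPM in 22Rv1, and basal markers summed to at most 2.29 CPM. In such bulk libraries fewer cells of a kind and less RNA per cell cannot be told apart. LNCaP:C4-2 siSCR replicate 1 stood apart from the other siSCR libraries of its group. Its counts differed from those of the other 2 with a chi-square of 30.5 and 30.8 per degree of freedom, where all other replicate pairs with R1881 gave 2.21 to 14. Its count-weighted GC content was 49.7% against 48.5% in both others, close to the 49.9% to 50.3% of the siMETTL3 libraries, and mitochondrial genes took 7.08% of its counts against 9.73% and 9.69%. The mitochondrial share moved with the knockdown in both lines, at 6.46% to 7.05% with siMETTL3 in LNCaP:C4-2, and at 4.96% to 5.28% with siSCR against 3.93% to 4.24% with siMETTL3 in 22Rv1, and its part in the changes below was not tested. METTL3 in that library matched its label. The numbers of genes called, and the values of METTL3 and a few other genes, are given with and without that library below. Most values of single genes are given only from the fit that includes it.

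METTL3 itself was lowered in both lines. In LNCaP:C4-2, METTL3 (ENSG00000165819, GRCh38 chr14:21498133-21511375, minus strand) was at 29.2, 33 and 34.9 CPM with siSCR and at 21.8, 21.3 and 22.1 CPM with siMETTL3. In 22Rv1, METTL3 was at 50.4, 47.7 and 49.8 CPM with siSCR and at 20.8, 23.9 and 20.6 CPM with siMETTL3. The groups did not overlap in either line, and the depleted level was alike in both while the starting level was higher in 22Rv1. Mean METTL3 went from 32.4 ± 2.89 to 21.7 ± 0.409 CPM (SD, n = 3) in LNCaP:C4-2, a change of -32.8%, and from 49.3 ± 1.45 to 21.8 ± 1.89 CPM in 22Rv1, a change of -55.9%. The estimates were log2 fold changes of -0.57 ± 0.09 (SE) and -1.18 ± 0.09, with adjusted p = 0.000675 and 7.26e-07 (edgeR's quasi-likelihood test, Benjamini-Hochberg adjustment). The fall in LNCaP:C4-2 corresponds to 1.49-fold and so stayed just under the 1.5-fold limit of a differentially expressed gene (DEG). The difference between the lines was -0.61 ± 0.13, with an unadjusted p of 0.000174 that did not pass after adjustment over all genes (adjusted p = 0.0776). It passed with DESeq2 (adjusted p = 0.00253), with a GC offset (adjusted p = 0.00689) and without LNCaP:C4-2 siSCR replicate 1 (adjusted p = 0.0116, difference -0.54). The fold change of METTL3 thus differed between the lines by a value near the threshold, from unlike starting levels to alike depleted levels. The part of this difference in the differences of other genes was not tested.

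Most genes were not distinguishable between the lines. Of 18239 genes tested, 18 passed an adjusted p under 0.05 for the difference, which is 0.0987% of genes, and 1757 passed an unadjusted p under 0.05, which is 9.63%. Of the 18, 7 had a higher and 11 a lower change in 22Rv1. In 13 of them the fold changes of the lines had opposite signs (12 with a GC offset, under which SLC36A4 in LNCaP:C4-2 turned from -0.25 to 0.04), and in 8 of these both lines passed an adjusted p under 0.05 on their own. With the GC offset the LNCaP:C4-2 changes of SEMA3C, GUCY1A1, MEX3B and ECI2 no longer passed (edgeR's adjusted p = 0.123, 0.15, 0.288 and 0.0974). The siMETTL3 and siSCR libraries did not overlap for 17 of the 18 in LNCaP:C4-2, where 30.6% of all genes did not overlap, and for 16 in 22Rv1, where 42.1% did not. For 12 of the 18 they did not overlap in both lines and moved in opposite directions, a pattern seen in 159 genes or 0.872% of all tested. The values of these same libraries chose the 18, so these shares describe the choice and lend it no support. All 18 were also called by DESeq2, which called 184 genes in all. In the fit of all 24 libraries 11 of the 18 were called, and S100P, AHNAK, ESRP1, TMEM123, SYT4, SLC36A4 and GUCY1A1 were lost, with adjusted p from 0.107 for GUCY1A1 to 0.434 for TMEM123. With RLE size factors 16 of the 18 were called, and S100P and TMEM123 were lost.

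The number of genes called rested on single libraries. Without LNCaP:C4-2 siSCR replicate 1, 857 genes were called, all 18 among them. Without LNCaP:C4-2 siSCR replicate 2, siMETTL3 replicate 1, or 22Rv1 siMETTL3 replicate 2 or 3, 2 genes were called in each case, both among the 18. Without LNCaP:C4-2 siSCR replicate 3, 11 of the 18 stayed called, and without LNCaP:C4-2 siMETTL3 replicate 2 or 3, 7 and 13 did. Without 22Rv1 siSCR replicate 1, 2 or 3, it was 5, 3 and 4, and without 22Rv1 siMETTL3 replicate 1 it was 7. F5 and SEMA3C were called in all 12 of these fits, and they are the 2 differences that did not rest on a single library. Leaving out a library never turned the direction of any of the 18 differences.

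**Figure D1:**
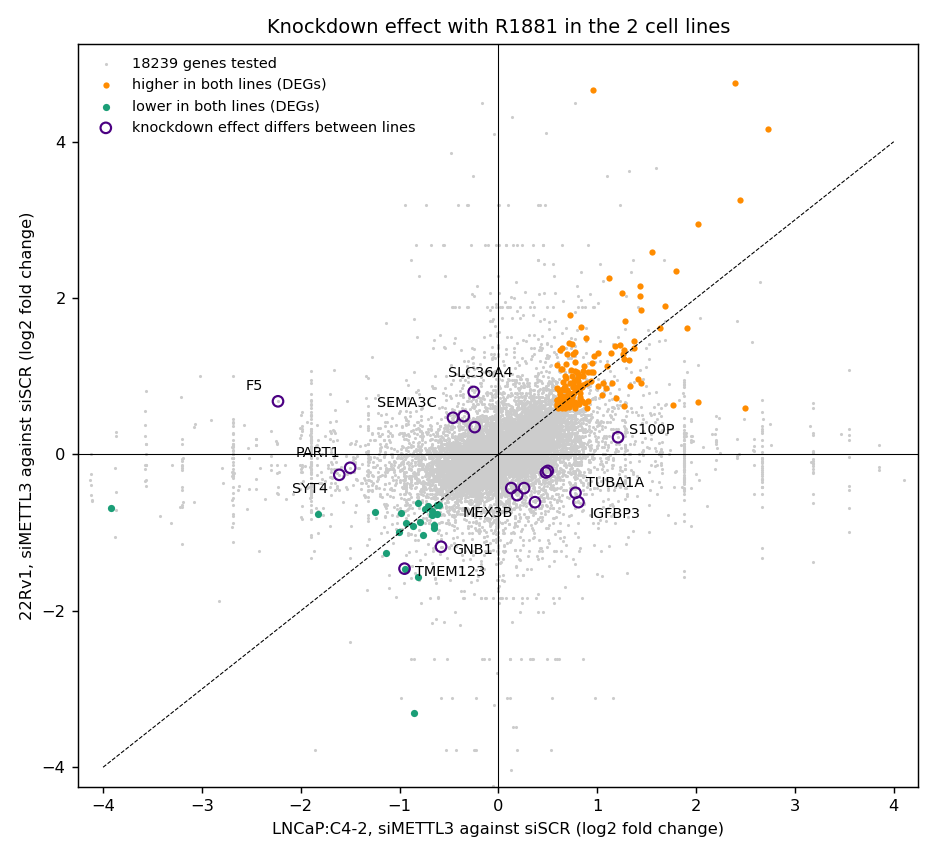
Log2 fold change with siMETTL3 against siSCR with R1881 in LNCaP:C4-2 (x axis) and 22Rv1 (y axis), with 1 point per gene. Orange and green points are the 151 genes higher and the 23 lower in both lines, purple rings are the 18 genes whose effect differed, and 14 of the 18239 genes lie outside the axes. Most coloured points run along the diagonal, and most rings lie in the quadrants where the signs are opposite.

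The widest difference was that of F5. The gene (ENSG00000198734, chr1:169514166-169586588, minus strand) encodes coagulation factor V, a cofactor of thrombin formation. In LNCaP:C4-2, F5 was at 10.5, 16.4 and 9.52 CPM with siSCR and at 1.9, 2.69 and 3.1 CPM with siMETTL3. In 22Rv1, F5 was at 14, 13.3 and 11.9 CPM with siSCR and at 21.3, 20.7 and 20.9 CPM with siMETTL3. The gene had a similar starting level in both lines, and no siMETTL3 library overlapped a siSCR library in either. Its log2 fold change was -2.23 ± 0.2 in LNCaP:C4-2 (adjusted p = 9.1e-06) and 0.68 ± 0.16 in 22Rv1 (adjusted p = 0.0108). The difference of 2.91 ± 0.26 (adjusted p = 2.6e-05) was the largest among the 18 and stayed at an adjusted p of at most 0.000344 whichever library was left out.

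SEMA3C (ENSG00000075223, chr7:80742538-80922359, minus strand) encodes a secreted semaphorin, a ligand that steers migrating cells and axons. In LNCaP:C4-2, SEMA3C was at 37.9, 43.1 and 41.7 CPM with siSCR and at 31, 29.2 and 29.3 CPM with siMETTL3. In 22Rv1, SEMA3C was at 31.5, 32.7 and 35.9 CPM with siSCR and at 44.3, 51.0 and 43.6 CPM with siMETTL3. It fell in the first line and rose in the second by almost the same amount, without overlap. With the GC offset the sizes were unlike, at -0.2 in LNCaP:C4-2 (edgeR's adjusted p = 0.123) and 0.64 in 22Rv1 (adjusted p = 4.77e-05). The log2 fold changes were -0.46 ± 0.09 (adjusted p = 0.00227) and 0.47 ± 0.09 (adjusted p = 0.00294), and the difference was 0.93 ± 0.13 (adjusted p = 0.00681), with adjusted p = 0.0489 in the least favourable of the 12 fits without a library.

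IGFBP3 (ENSG00000146674, chr7:45912245-45921874, minus strand) encodes a secreted protein that binds insulin-like growth factors. In LNCaP:C4-2, IGFBP3 was at 5.65, 5.15 and 9.01 CPM with siSCR and at 9.79, 9.06 and 16.3 CPM with siMETTL3. In 22Rv1, IGFBP3 was at 318, 297 and 280 CPM with siSCR and at 209, 181 and 196 CPM with siMETTL3. The 22Rv1 level was far above that of LNCaP:C4-2 throughout, and the direction was the reverse of that in F5. In LNCaP:C4-2 it rose by 0.81 ± 0.2 log2 (adjusted p = 0.00851), and it changed by -0.61 ± 0.14 (adjusted p = 0.00977) in 22Rv1, a difference of -1.42 ± 0.25 (adjusted p = 0.0327). The difference kept its call in 4 of the 12 fits without a library, with adjusted p up to 0.119. F5, IGFBP3 and SORL1 were the 3 genes (0.0164% of those tested) that were DEGs in both lines in opposite directions. SORL1, a sorting receptor of the endosome, was at 4.69, 4.45 and 3.58 CPM with siSCR and 6.43, 6.37 and 6.53 CPM with siMETTL3 in LNCaP:C4-2. In 22Rv1, SORL1 was at 2.58, 2.45 and 3.18 CPM with siSCR and 1.66, 1.67 and 1.62 CPM with siMETTL3. Its difference of -1.34 ± 0.26 lay just outside the threshold (adjusted p = 0.0544), although the groups did not overlap in either line. It passed with DESeq2 (adjusted p = 0.00464), with the GC offset (edgeR's adjusted p = 0.0216) and without LNCaP:C4-2 siSCR replicate 1 (adjusted p = 0.00514). Without any other library it did not pass, with adjusted p up to 0.18.

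GUCY1A1 (ENSG00000164116, chr4:155666711-155732349, plus strand) encodes the alpha subunit of soluble guanylate cyclase, the receptor for nitric oxide. In LNCaP:C4-2, GUCY1A1 was at 174, 188 and 166 CPM with siSCR and at 138, 143 and 133 CPM with siMETTL3. In 22Rv1, GUCY1A1 was low, at 2.05, 2.5 and 2.45 CPM with siSCR and 3.31, 3.18 and 3.34 CPM with siMETTL3. It fell where it was abundant and rose where it was low, with log2 fold changes of -0.35 ± 0.07 (adjusted p = 0.0023) and 0.49 ± 0.14 (adjusted p = 0.0302). The 22Rv1 values rested on 39 to 62 counts per library, and the difference of 0.84 ± 0.15 (adjusted p = 0.038) was the only call of the 18 lost with a GC offset (adjusted p = 0.0501). S100P (ENSG00000163993, chr4:6693069-6697170, plus strand) encodes a small calcium-binding protein. In LNCaP:C4-2, S100P was at 11.4, 7.5 and 8.91 CPM with siSCR and at 24, 21.8 and 18.9 CPM with siMETTL3. In 22Rv1, S100P was at 42, 43.1 and 39.6 CPM with siSCR and at 53.7, 42.9 and 49.1 CPM with siMETTL3, and these groups overlapped. The rise of 1.21 ± 0.14 log2 (adjusted p = 6.35e-05) in LNCaP:C4-2 stood beside 0.22 ± 0.12 (adjusted p = 0.218) in 22Rv1, a difference of -0.99 ± 0.18 (adjusted p = 0.0378).

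Among the genes with negative differences were LAMA3, AHNAK, TUBA1A, ARHGEF10 and PLEKHH1. LAMA3 (ENSG00000053747, chr18:23689443-23955066, plus strand) encodes an alpha chain of laminin, a protein of the basement membrane. In LNCaP:C4-2, LAMA3 was at 94.8, 96.0 and 106 CPM with siSCR and at 114, 123 and 119 CPM with siMETTL3. In 22Rv1, LAMA3 was at 39.7, 41.4 and 38.2 CPM with siSCR and at 32.3, 26 and 30.2 CPM with siMETTL3. The groups were apart in both lines, with log2 fold changes of 0.26 ± 0.08 (adjusted p = 0.0242) and -0.43 ± 0.09 (adjusted p = 0.00413) and a difference of -0.69 ± 0.12 (adjusted p = 0.031). AHNAK (ENSG00000124942, chr11:62433542-62556235, minus strand) encodes a very large scaffold protein at the cell membrane. In LNCaP:C4-2, AHNAK was at 98.6, 87.0 and 86.2 CPM with siSCR and at 126, 142 and 117 CPM with siMETTL3. In 22Rv1, AHNAK was at 183, 188 and 199 CPM with siSCR and at 168, 171 and 156 CPM with siMETTL3. The rise in LNCaP:C4-2 (0.5 ± 0.08, adjusted p = 0.000627) passed the test and the change in 22Rv1 (-0.21 ± 0.08, adjusted p = 0.0852) did not, and the difference was -0.71 ± 0.11 (adjusted p = 0.0182).

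TUBA1A (ENSG00000167552, chr12:49184796-49189324, minus strand) encodes an alpha-tubulin of microtubules. In LNCaP:C4-2, TUBA1A was at 1.64, 1.4 and 1.69 CPM with siSCR and at 2.8, 2.31 and 3.1 CPM with siMETTL3, from 22 to 55 counts per library. In 22Rv1, TUBA1A was at 109, 101 and 105 CPM with siSCR and at 81.2, 73.3 and 71.0 CPM with siMETTL3. As with IGFBP3, the gene rose in the line that expressed little of it and fell in the line that expressed much of it. The log2 fold changes were 0.78 ± 0.17 (adjusted p = 0.00404) and -0.49 ± 0.08 (adjusted p = 0.00143), and the difference was -1.27 ± 0.19 (adjusted p = 0.0138), called in 8 of the 12 fits without a library. Genes of alpha-tubulin are near copies of each other, so that fragments shared between them may be missing from these counts. ARHGEF10 (ENSG00000104728, chr8:1823976-1958641, plus strand) encodes a guanine nucleotide exchange factor. In LNCaP:C4-2, ARHGEF10 was at 31.2, 33.1 and 34.2 CPM with siSCR and at 36.1, 39.1 and 37.2 CPM with siMETTL3. In 22Rv1, ARHGEF10 was at 25.9, 29 and 29.6 CPM with siSCR and at 20.5, 20.8 and 17.8 CPM with siMETTL3. The fall in 22Rv1 (-0.52 ± 0.09, adjusted p = 0.00231) passed the test while the value in LNCaP:C4-2 (0.19 ± 0.09, adjusted p = 0.127) did not, and the difference was -0.71 ± 0.13 (adjusted p = 0.0378). PLEKHH1 (ENSG00000054690, chr14:67533301-67589612, plus strand) encodes a protein with pleckstrin homology and FERM domains. In LNCaP:C4-2, PLEKHH1 was at 33.3, 34.7 and 36.9 CPM with siSCR and at 50.3, 48.9 and 47.2 CPM with siMETTL3. In 22Rv1, PLEKHH1 was at 22.7, 24 and 22.0 CPM with siSCR and at 21.6, 19.1 and 17.7 CPM with siMETTL3. Its rise of 0.48 ± 0.09 log2 (adjusted p = 0.00132) in LNCaP:C4-2 and its value of -0.23 ± 0.09 (adjusted p = 0.0994) in 22Rv1 gave a difference of -0.72 ± 0.13 (adjusted p = 0.034).

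**Figure D2:**
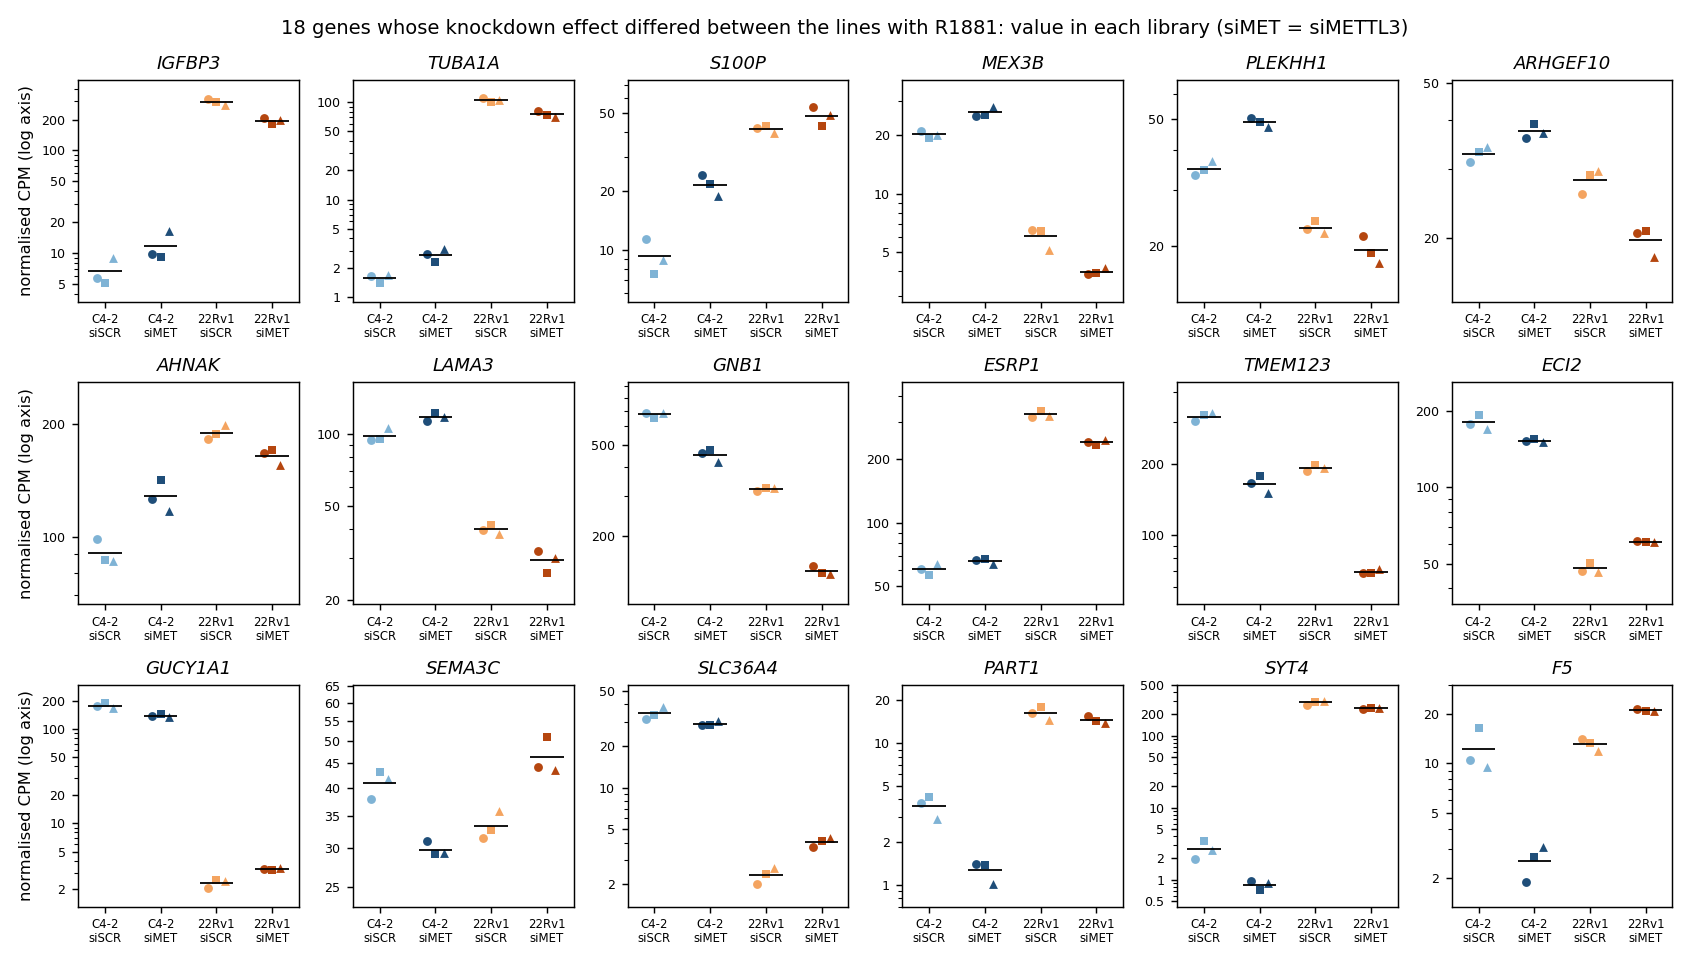
Normalised CPM on a log axis for each of the 18 genes whose knockdown effect differed between the lines with R1881, with 1 point per library, 3 libraries in each of the 4 groups, shapes for the replicates and a line at the group mean. F5 drops to 1.9 to 3.1 CPM with siMETTL3 in LNCaP:C4-2 and climbs to 20.7 to 21.3 CPM in 22Rv1, and IGFBP3 and TUBA1A show the reverse from very different starting levels.

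ESRP1 and MEX3B also fell in 22Rv1. ESRP1 (ENSG00000104413, chr8:94641074-94707466, plus strand) encodes a splicing regulator of epithelial cells. In LNCaP:C4-2, ESRP1 was at 60.4, 56.4 and 64.1 CPM with siSCR and at 66.4, 67.2 and 63.9 CPM with siMETTL3, with overlap. In 22Rv1, ESRP1 was at 318, 339 and 321 CPM with siSCR and at 242, 234 and 248 CPM with siMETTL3. With log2 fold changes of 0.13 ± 0.07 (adjusted p = 0.182) and -0.43 ± 0.06 (adjusted p = 0.000569), the difference was -0.56 ± 0.09 (adjusted p = 0.0244). MEX3B (ENSG00000183496, chr15:82041778-82046141, minus strand) encodes a protein that binds RNA through KH domains. In LNCaP:C4-2, MEX3B was at 21.1, 19.3 and 20.1 CPM with siSCR and at 25.1, 25.5 and 27.9 CPM with siMETTL3. In 22Rv1, MEX3B was at 6.52, 6.47 and 5.16 CPM with siSCR and at 3.85, 3.91 and 4.15 CPM with siMETTL3. It moved in opposite directions without overlap, by 0.37 ± 0.1 (adjusted p = 0.0137) and -0.61 ± 0.14 (adjusted p = 0.00801), and the difference was -0.98 ± 0.17 (adjusted p = 0.0327).

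ECI2 and SLC36A4 had positive differences. ECI2 (ENSG00000198721, chr6:4115689-4135597, minus strand) encodes an isomerase of the oxidation of unsaturated fatty acids. In LNCaP:C4-2, ECI2 was at 177, 193 and 170 CPM with siSCR and at 152, 155 and 151 CPM with siMETTL3. In 22Rv1, ECI2 was at 46.8, 50.5 and 46.5 CPM with siSCR and at 61.4, 61.1 and 60.8 CPM with siMETTL3. The replicates were tight and apart in both lines, with log2 fold changes of -0.24 ± 0.06 (adjusted p = 0.0138) and 0.35 ± 0.07 (adjusted p = 0.00358) and a difference of 0.59 ± 0.09 (adjusted p = 0.0201). SLC36A4 (ENSG00000180773, chr11:93144171-93197964, minus strand) encodes an amino acid transporter. In LNCaP:C4-2, SLC36A4 was at 31.5, 33.4 and 38.4 CPM with siSCR and at 28.4, 28.2 and 30.5 CPM with siMETTL3. In 22Rv1, SLC36A4 was at 2.0, 2.39 and 2.61 CPM with siSCR and at 3.73, 4.13 and 4.36 CPM with siMETTL3, from 38 to 81 counts. Its rise in 22Rv1 (0.8 ± 0.16, adjusted p = 0.00408) passed the test and its value in LNCaP:C4-2 (-0.25 ± 0.1, adjusted p = 0.0823) did not, and the difference was 1.05 ± 0.19 (adjusted p = 0.0378).

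SYT4 and PART1 were lowered mainly in LNCaP:C4-2, where both were scarce. SYT4 (ENSG00000132872, chr18:43267878-43277650, minus strand) encodes a synaptotagmin, a membrane protein of secretory vesicles. In LNCaP:C4-2, SYT4 was at 1.92, 3.43 and 2.61 CPM with siSCR and at 0.951, 0.714 and 0.901 CPM with siMETTL3, from 13 to 54 counts per library. In 22Rv1, SYT4 was at 268, 296 and 301 CPM with siSCR and at 235, 240 and 245 CPM with siMETTL3. The gene was lowered in both lines, with log2 fold changes of -1.61 ± 0.22 (adjusted p = 0.000225) and -0.26 ± 0.08 (adjusted p = 0.0384), and the difference was 1.35 ± 0.24 (adjusted p = 0.034). PART1 (ENSG00000152931, chr5:60487713-60547657, plus strand) is a long non-coding RNA of the prostate that responds to androgen. In LNCaP:C4-2, PART1 was at 3.78, 4.13 and 2.92 CPM with siSCR and at 1.4, 1.37 and 1.01 CPM with siMETTL3. In 22Rv1, PART1 was at 16.3, 17.9 and 14.6 CPM with siSCR and at 15.4, 14.2 and 13.8 CPM with siMETTL3, with overlap. The change of -1.5 ± 0.21 (adjusted p = 0.000225) in LNCaP:C4-2 stood beside -0.17 ± 0.13 (adjusted p = 0.411) in 22Rv1, and the difference was 1.33 ± 0.24 (adjusted p = 0.0378).

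GNB1 and TMEM123 fell in both lines, and further in 22Rv1. GNB1 (ENSG00000078369, chr1:1785285-1891117, minus strand) encodes a beta subunit of heterotrimeric G proteins. In LNCaP:C4-2, GNB1 was at 689, 652 and 688 CPM with siSCR and at 460, 475 and 419 CPM with siMETTL3. In 22Rv1, GNB1 was at 313, 322 and 324 CPM with siSCR and at 148, 138 and 137 CPM with siMETTL3. The log2 fold changes were -0.58 ± 0.06 (adjusted p = 3.91e-05) and -1.18 ± 0.06 (adjusted p = 3.62e-09), and the difference was -0.6 ± 0.09 (adjusted p = 0.0138). TMEM123 (ENSG00000152558, chr11:102396332-102470384, minus strand) encodes a transmembrane protein of the cell surface. In LNCaP:C4-2, TMEM123 was at 302, 320 and 327 CPM with siSCR and at 165, 177 and 150 CPM with siMETTL3. In 22Rv1, TMEM123 was at 187, 198 and 192 CPM with siSCR and at 69.0, 68.8 and 71.5 CPM with siMETTL3. Its log2 fold changes of -0.95 ± 0.07 (adjusted p = 6.85e-07) and -1.46 ± 0.07 (adjusted p = 7.22e-10) made it a DEG in both lines, and the difference of -0.51 ± 0.1 lay just inside the threshold (adjusted p = 0.0493).

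The same difference was then read in the 12 vehicle libraries, which share no library with those above and were fitted on their own. Some of these libraries stood apart. LNCaP:C4-2 siMETTL3 replicate 1 differed from the others of its group with a chi-square of 38.5 and 41.7 per degree of freedom. Its count-weighted GC content was 48.5% against 50% in both. For 22Rv1 siMETTL3 replicate 1 the chi-square was 17.6 and 16.2, and for 22Rv1 siSCR replicate 3 it was 16.7 and 11.8. Without that LNCaP:C4-2 library 79 genes were called for the vehicle difference in place of 15. Of the 18 genes, 15 had the same sign in vehicle, where 55.4% of the 17779 genes tested in both settings did. For 9 of the 15 the vehicle difference passed an unadjusted p under 0.05 (TUBA1A, S100P, MEX3B, AHNAK, GNB1, ESRP1, TMEM123, SEMA3C and ECI2), where 9.57% of all genes did in either direction. GNB1 was the only gene called in both settings, with a vehicle difference of -0.59 ± 0.1 (adjusted p = 0.0445) from log2 fold changes of -0.46 in LNCaP:C4-2 and -1.05 in 22Rv1. Its call in vehicle belonged to 15 calls among 18655 genes (0.0804%), and it was kept in the fits without LNCaP:C4-2 siMETTL3 replicate 1 or 3 and lost without any other vehicle library, with differences of -0.62 to -0.57 and adjusted p up to 0.182. The vehicle difference of TMEM123 was -1.12 ± 0.22 (adjusted p = 0.0631), of ESRP1 -0.73 ± 0.17 (adjusted p = 0.093) and of S100P -1.85 ± 0.4 (adjusted p = 0.0873). SEMA3C gave 0.53 ± 0.16 (unadjusted p = 0.00543) and F5 gave 1.04 ± 0.51 (unadjusted p = 0.107). IGFBP3 (0.27 ± 0.17, unadjusted p = 0.135), SLC36A4 (-0.26 ± 0.36, unadjusted p = 0.485) and LAMA3 (0.03 ± 0.17, unadjusted p = 0.881) had the opposite sign to that with R1881.

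Whether the difference itself depended on R1881 was tested in all 24 libraries. No gene passed an adjusted p under 0.05 with edgeR's quasi-likelihood test among 19437 genes, 1179 (6.07%) passed an unadjusted p under 0.05, and DESeq2 called 3. Of the 18 genes, 8 passed the unadjusted threshold, with IGFBP3 at -1.66 (unadjusted p = 2.91e-05, adjusted p = 0.282), F5 at 1.9 (unadjusted p = 0.0175) and LAMA3 at -0.69 (unadjusted p = 0.00187) as examples. The R1881 values that chose the 18 also enter this contrast. Their share and their unadjusted p-values are therefore shaped by the choice and lend no support to a dependence on R1881. For F5 the vehicle levels in LNCaP:C4-2 lay near the floor. The value of GNB1 was 0.02 (unadjusted p = 0.865). The genes called in vehicle other than GNB1 were not called with R1881, and 3 of them, chosen after their values were seen, serve as examples. FOS, an immediate early transcription factor, had a vehicle difference of -2.85 and an R1881 difference of -0.37, GDF15, a stress-induced cytokine, had -1.81 and -0.32, and TTR, the thyroxine carrier transthyretin, had 2.2 and 0.72.

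**Figure D3:**
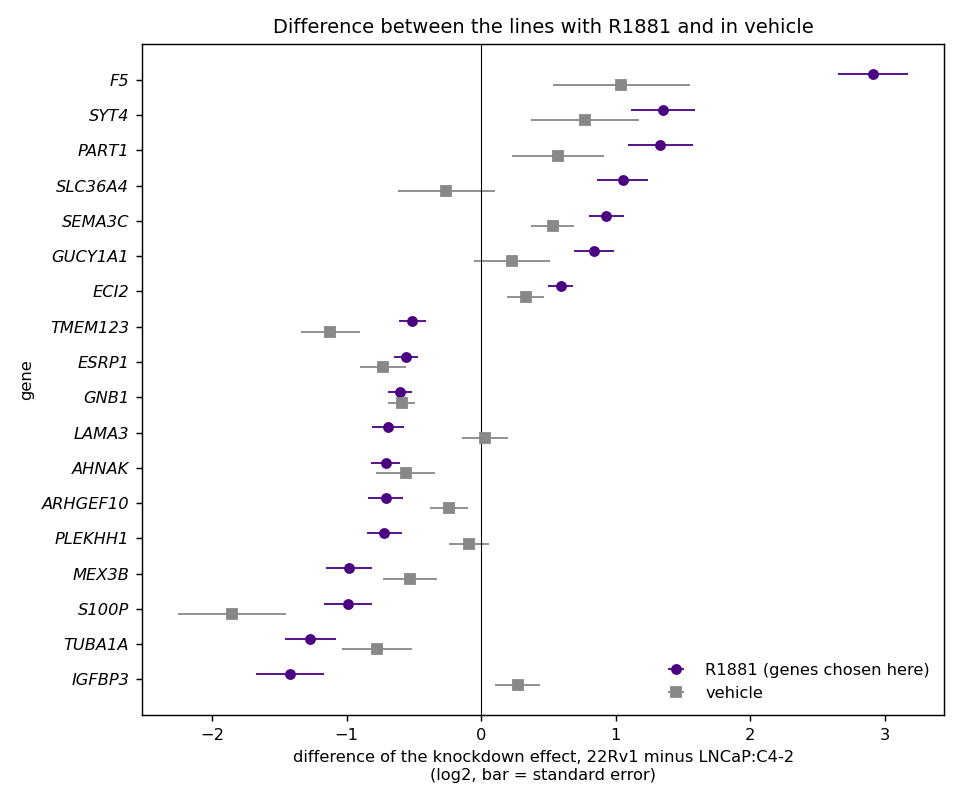
Difference of the knockdown effect, 22Rv1 minus LNCaP:C4-2, on the log2 scale for the 18 genes with R1881 (circles) and in vehicle (squares), with bars of 1 standard error. The R1881 values chose the genes, 15 of the 18 squares lie on the same side of 0 as their circles, and those of IGFBP3, SLC36A4 and LAMA3 lie on the other side.

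Known pathways were then followed across both lines. Over all genes the median difference was 0.00, 3.38% of genes were higher and 1.80% lower DEGs in LNCaP:C4-2, and 2.15% were higher and 0.724% lower DEGs in 22Rv1. For the difference, 9.63% of all genes passed an unadjusted p under 0.05, edgeR called 0.0987% and DESeq2 called 184 of 18239 genes. Of 29 androgen response genes tested, ACSL3, ELL2, STEAP4 and TRPM8 were lower DEGs in LNCaP:C4-2 and GNMT and TMPRSS2 higher DEGs in 22Rv1. None of the 29 was called for the difference by edgeR, 9 passed an unadjusted p under 0.05 and DESeq2 called 4 (ACSL3, ELL2, GNMT and MAF). The median difference was 0.20, with 6 of the 29 lower in 22Rv1. ELL2, a transcription elongation factor, was at 136, 183 and 183 CPM with siSCR and 90.8, 84.3 and 121 CPM with siMETTL3 in LNCaP:C4-2, and at 156, 159 and 168 against 158, 164 and 151 CPM in 22Rv1. It was a DEG in the first line (-0.76 ± 0.12, adjusted p = 0.000537) and gave -0.03 ± 0.12 in the second, and the difference of 0.73 ± 0.17 did not pass (adjusted p = 0.0942). GNMT, a glycine methyltransferase, was at 20, 18.6 and 15.8 against 17.9, 20.7 and 17.7 CPM in LNCaP:C4-2, and rose from 11.5, 11.9 and 14.2 to 22.5, 21 and 21.5 CPM in 22Rv1 (0.79 ± 0.12, adjusted p = 0.000634). MAF, a transcription factor, fell in LNCaP:C4-2 (-0.53 ± 0.09, adjusted p = 0.000824) and gave 0.76 ± 0.27 (adjusted p = 0.081) in 22Rv1, where it stood at 0.489 to 1.12 CPM. Among androgen-responsive lipid enzymes, ACSL3 was at 1410, 1570 and 1530 against 988, 993 and 974 CPM in LNCaP:C4-2 and at 456, 450 and 501 against 375, 405 and 382 CPM in 22Rv1. It was lowered in both lines, with log2 fold changes of -0.61 ± 0.06 (adjusted p = 2.89e-05) and -0.28 ± 0.06 (adjusted p = 0.0101), and the difference of 0.33 ± 0.09 did not pass (adjusted p = 0.177).

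The UGT enzymes, which conjugate glucuronic acid to androgens and other substrates, had a median difference of 0.49 over 8 genes tested, with none called by edgeR or DESeq2 and 3 at an unadjusted p under 0.05. Their median log2 fold change was -0.81 in LNCaP:C4-2, where UGT2B11, UGT2B15 and UGT2B28 were lower DEGs, and -0.34 in 22Rv1, where UGT1A1 was. UGT2B28 was at 32.3, 58.4 and 62.9 CPM with siSCR and 20, 20 and 31.1 CPM with siMETTL3 in LNCaP:C4-2, and at 41.8, 43.3 and 58.1 against 35.6, 39.2 and 35.9 CPM in 22Rv1. The replicates with siSCR were widely spread, and the difference of 0.74 ± 0.28 did not pass (adjusted p = 0.385). The UGT2B genes are near copies of each other, and their counts are uncertain to that extent.

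Genes of the integrated stress response and endoplasmic reticulum leaned the other way. Of 28 tested, 25 had a lower change in 22Rv1, with a median difference of -0.13, against 9010 of all 18239 genes, but none was called by edgeR, 5 passed an unadjusted p under 0.05 and DESeq2 called 2 (EDEM1 and CREB3L2). EDEM1, which sends misfolded glycoproteins to degradation, was at 128, 141 and 144 against 111, 126 and 113 CPM in LNCaP:C4-2 and at 174, 178 and 168 against 98.3, 100 and 109 CPM in 22Rv1. It was lowered in both, with log2 fold changes of -0.24 ± 0.07 (adjusted p = 0.0202) and -0.76 ± 0.07 (adjusted p = 7.95e-06), and the difference of -0.52 ± 0.1 lay just outside the threshold (adjusted p = 0.058). SDF2L1, an endoplasmic reticulum chaperone partner, rose in both lines, by 0.79 ± 0.1 (adjusted p = 0.00013) and 0.4 ± 0.1 (adjusted p = 0.0132).

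Axon guidance, adhesion, amino acid transport and the IGF and ERBB pathways each held 1 called gene, named above (SEMA3C, LAMA3, SLC36A4 and IGFBP3), among 37, 42, 23 and 22 genes tested, with median differences of -0.06, -0.05, 0.06 and 0.01. At an unadjusted p under 0.05 stood 10, 11, 4 and 5 of them, where 9.63% of all genes did. DESeq2 also called EPHA7, SEMA3E, SEMA4D, COL4A5 and LAMC1. EPHA7, an ephrin receptor, was at 10.1, 15.6 and 10.7 against 5.37, 4.06 and 6.25 CPM in LNCaP:C4-2 and at 7.94, 6.96 and 8.45 against 7.34, 7.92 and 8.08 CPM in 22Rv1. In LNCaP:C4-2 it was a lower DEG (-1.21 ± 0.18, adjusted p = 0.000406), in 22Rv1 it gave 0.00 ± 0.18, and the difference of 1.21 ± 0.25 did not pass (adjusted p = 0.0727). LAMC1, the gamma chain that pairs with LAMA3 in laminin, rose in LNCaP:C4-2 (0.35 ± 0.07, adjusted p = 0.00189) and gave -0.1 ± 0.07 in 22Rv1, with a difference of -0.45 ± 0.09 (adjusted p = 0.0727). In 37 DNA replication genes the median difference was -0.09 and in 30 mitosis genes it was 0.00. None of either list was called by edgeR, 3 and 1 passed an unadjusted p under 0.05, and DESeq2 called TK1. TK1, a thymidine kinase, was at 148, 150 and 162 against 262, 206 and 280 CPM in LNCaP:C4-2 and at 62.9, 69.8 and 71.1 against 74.1, 79.1 and 70.2 CPM in 22Rv1. Its rise in LNCaP:C4-2 was 0.7 ± 0.09 (adjusted p = 0.000166) and its difference -0.57 ± 0.13 (adjusted p = 0.103). The 35 genes of glycolysis and hypoxia had a median difference of -0.12 with R1881 and -0.64 in vehicle. With R1881, none was called by edgeR or DESeq2 and none passed an unadjusted p under 0.05.

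No gene of the remaining pathway lists was called for the difference by edgeR, with medians of 0.00 over 26 cholesterol genes, 0.01 over 26 fatty acid genes, 0.06 over 26 p53 targets, -0.08 over 26 interferon and antigen presentation genes, and -0.06 over 28 MAPK and immediate early genes. The numbers at an unadjusted p under 0.05 were 2, 8, 4, 2 and 7, where 9.63% of all genes passed it, and DESeq2 called TM7SF2, ACSL3, ELOVL5 and B2M. B2M, the light chain of class I antigen presentation, fell in LNCaP:C4-2 (-0.53 ± 0.06, adjusted p = 8.72e-05) and gave -0.14 ± 0.06 in 22Rv1, with a difference of 0.39 ± 0.09 (adjusted p = 0.0942). TM7SF2, a sterol reductase, was at 119, 103 and 83.6 against 105, 103 and 85.5 CPM in LNCaP:C4-2 and rose from 48.1, 48.4 and 51.7 to 77.5, 79.1 and 75.2 CPM in 22Rv1, with a difference of 0.7 ± 0.15 (adjusted p = 0.0766). The 24 genes of the m6A machinery had a median difference of -0.01. None was called for the difference by edgeR, 3 passed an unadjusted p under 0.05, DESeq2 called METTL3 and METTL5, and METTL3 in 22Rv1 was the only DEG among them in either line. METTL5, an RNA methyltransferase of ribosomal RNA, was at 58.7, 59.7 and 62.9 against 46.6, 45.8 and 48.4 CPM in LNCaP:C4-2 and at 15.3, 16 and 15.5 against 14.7, 17.2 and 18.4 CPM in 22Rv1, a difference of 0.47 ± 0.13 (adjusted p = 0.163). Among the lists of other cell types, immune markers summed to at most 2.36 CPM, and endothelial markers to at most 12.3 CPM. Stromal markers, of which 6 of 12 were tested and none was a DEG, summed in LNCaP:C4-2 to 48.1 to 59 CPM with siSCR and 73.1 to 74.4 CPM with siMETTL3, without overlap, and in 22Rv1 to 20.5 to 21.4 and 18.7 to 21.5 CPM. Of the 6 stromal markers tested, 3 were estimated higher and 2 lower in LNCaP:C4-2, with a median log2 fold change of 0.03. In 22Rv1 it was 1 and 5, with a median of -0.17, and 6 of the 12 stayed under 1 CPM in every library. Neuroendocrine markers, of which 5 of 10 were tested, summed in LNCaP:C4-2 to 94.5 to 185 CPM with siSCR and 134 to 240 CPM with siMETTL3, and in 22Rv1 to 293 to 312 and 327 to 348 CPM, without overlap in 22Rv1. SYP, which encodes synaptophysin, was a higher DEG in LNCaP:C4-2 and CHGB, which encodes a chromogranin, in 22Rv1, while NEUROD1 was at 0 in all 12 libraries. Of the 5 tested, 2 were estimated higher and 2 lower in LNCaP:C4-2, with a median log2 fold change of 0.00. In 22Rv1 it was 3 and 2, with a median of 0.09, and 5 of the 10 markers stayed under 1 CPM in every library. The part of these markers in the other results was not tested. None of the genes in these lists or among the luminal markers was called for the difference by edgeR, and DESeq2 called FOLH1 and COL1A1.

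More genes were called in both lines in the same direction than for the difference (174 against 18), an order that did not hold with DESeq2 (156 against 184) or without LNCaP:C4-2 siSCR replicate 1 (332 against 857), while the GC offset gave 60 against 59. In LNCaP:C4-2, 946 genes (5.19%) were DEGs, 617 higher and 329 lower, and in 22Rv1, 524 (2.87%) were, 392 higher and 132 lower. Without LNCaP:C4-2 siSCR replicate 1, 2 or 3 or siMETTL3 replicate 1, LNCaP:C4-2 had 2063, 480, 542 and 614 DEGs, and without 22Rv1 siSCR replicate 2 or 3 or siMETTL3 replicate 1, 22Rv1 had 286, 316 and 248. In both lines 174 genes (0.954%) were DEGs in the same direction, which is 18.4% of the LNCaP:C4-2 DEGs and 33.2% of the 22Rv1 DEGs. Of these, 151 (0.828%) were higher and 23 (0.126%) lower. Leaving out LNCaP:C4-2 siSCR replicate 1 gave 332 such genes, and leaving out LNCaP:C4-2 siSCR replicate 2 or 3, 22Rv1 siSCR replicate 2 or 22Rv1 siMETTL3 replicate 1 gave 108, 101, 114 and 105. A DEG of 1 line was mostly of the same sign in the other. Of the 769 DEGs of LNCaP:C4-2 alone, 653 (84.9%) had the same sign in 22Rv1, of the 347 of 22Rv1 alone, 286 (82.4%) had the same sign in LNCaP:C4-2, and over all genes 12917 (70.8%) did. Only 4 of those 769 and 3 of those 347 passed the test of the difference.

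The 151 genes higher in both lines had median log2 fold changes of 0.78 in LNCaP:C4-2 and 0.87 in 22Rv1, and 133 of them had at least 1 CPM in each line. For 134 the siMETTL3 and siSCR libraries did not overlap in either line, a pattern that 16.2% of all genes showed in a shared direction. MRPL12 (chr17:81703357-81707526, plus strand), a protein of the mitochondrial ribosome, was at 20.6, 10.9 and 8.39 CPM with siSCR and 41.1, 31.9 and 29.7 CPM with siMETTL3 in LNCaP:C4-2. In 22Rv1, MRPL12 was at 4.58, 4.3 and 4.07 CPM with siSCR and 13.1, 11.4 and 8.88 CPM with siMETTL3. Both log2 fold changes were nearly equal, at 1.37 ± 0.22 (adjusted p = 0.000718) and 1.36 ± 0.27 (adjusted p = 0.00359). Without LNCaP:C4-2 siSCR replicate 1 the MRPL12 changes were 1.85 and 1.37, and with the GC offset 0.96 and 1.07. ARL2BP (chr16:57245098-57253635, plus strand), a binding protein of the small GTPase ARL2, was at 1.35, 0.381 and 0.461 against 3.24, 2.53 and 2.59 CPM in LNCaP:C4-2 and at 1.89, 1.96 and 1.72 against 6.04, 5.8 and 5.28 CPM in 22Rv1. MGAT2 (chr14:49620795-49623481, plus strand), an enzyme of N-glycan synthesis, was at 0.96, 0.953 and 0.512 against 1.96, 2.91 and 2.87 CPM in LNCaP:C4-2 and at 0.473, 0.816 and 0.469 against 2.96, 1.95 and 1.72 CPM in 22Rv1. ARL2BP and MGAT2 rested on few counts in both lines. PHGR1 rose by 1.43 ± 0.4 log2 in LNCaP:C4-2 and 2.03 ± 0.37 in 22Rv1, TMEM191B by 1.37 ± 0.43 and 1.45 ± 0.29, and the readthrough transcript TEN1-CDK3 by 1.63 ± 0.34 and 1.62 ± 0.39. For PHGR1, LNCaP:C4-2 siSCR replicate 1 held 3.78 CPM beside 0.699 and 0.717 CPM in the other siSCR libraries.

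Short non-coding genes and genes without a symbol made up the rest of the strongest shared rises. The snoRNA SNORD104 was at 0.677, 0.0635 and 0.461 against 2.01, 1.37 and 1.69 CPM in LNCaP:C4-2 and at 0.158, 0.217 and 0.365 against 2.9, 1.73 and 1.29 CPM in 22Rv1. MT-TH, a mitochondrial tRNA gene, was at 2.99, 0.191 and 0.154 against 3.91, 3.79 and 4.0 CPM in LNCaP:C4-2 and at 0.789, 0.544 and 0.573 against 3.25, 3.63 and 2.91 CPM in 22Rv1. In both genes the level of LNCaP:C4-2 siSCR replicate 1 lay nearest to the siMETTL3 libraries. The snoRNA SNORD88A held no more than 3 counts, the detection floor, in each siSCR library of 22Rv1 and was at least 4.20-fold higher with siMETTL3. The pseudogene RPL34P31 was at or under the floor with siSCR in both lines, and was at least 2.54-fold and 3.91-fold higher with siMETTL3. ENSG00000274483 likewise was at least 3.99-fold and 2.62-fold higher. ENSG00000229413, ENSG00000281571 and ENSG00000224415 had log2 fold changes of 2.44 ± 0.55, 1.44 ± 0.46 and 1.43 ± 0.4 in the LNCaP:C4-2 cells and of 3.25 ± 0.65, 1.85 ± 0.51 and 2.15 ± 0.52 in the 22Rv1 cells. In such short or repeated genes the counting of fragments that align to several places is uncertain.

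The 23 genes lower in both lines had median log2 fold changes of -0.81 in LNCaP:C4-2 and -0.77 in 22Rv1, and none of their groups overlapped in either line. They are named here in part after their values were seen. COPS8 (chr2:237085312-237100466, plus strand), a subunit of the COP9 signalosome that regulates ubiquitin ligases, was at 74.1, 82.0 and 81.8 CPM with siSCR and 47.0, 49.2 and 41.0 CPM with siMETTL3 in LNCaP:C4-2. In 22Rv1, COPS8 was at 67.3, 67.3 and 69.9 CPM with siSCR and 35.9, 37.8 and 39.0 CPM with siMETTL3. The log2 fold changes were -0.79 ± 0.08 (adjusted p = 2.46e-05) and -0.86 ± 0.08 (adjusted p = 7.95e-06), with a difference of only -0.07 ± 0.11. AASDHPPT (chr11:106075501-106098710, plus strand), which attaches the phosphopantetheine group to carrier proteins, was at 63.0, 83.4 and 81.7 against 37.0, 39.0 and 42.6 CPM in LNCaP:C4-2. In 22Rv1, AASDHPPT was at 92.4, 95.0 and 97.8 against 47.3, 53.5 and 54.4 CPM. It changed by -0.94 ± 0.1 (adjusted p = 2.89e-05) and -0.88 ± 0.1 (adjusted p = 5.12e-05). MAPK6 (chr15:51952106-52067372, plus strand), an atypical MAP kinase, was in LNCaP:C4-2 at 464, 488 and 501 against 292, 347 and 273 CPM. In 22Rv1, MAPK6 was at 214, 215 and 228 against 121, 132 and 132 CPM.

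RRP1B, TGS1 and POLR3F were also lower in both lines. RRP1B (chr21:43659548-43696079, plus strand), a nucleolar protein of ribosomal RNA processing, was at 96.0, 99.9 and 98.0 against 57.6, 59.3 and 70.3 CPM in LNCaP:C4-2 and at 86.1, 84.5 and 88.7 against 44.2, 42.9 and 48.5 CPM in 22Rv1. TGS1 (chr8:55773142-55825448, plus strand), which methylates the cap of small nuclear RNAs, was at 22.5, 25 and 22.8 against 14.7, 13.2 and 15.1 CPM in LNCaP:C4-2 and at 46.8, 49.1 and 52.4 against 31.1, 30.7 and 32.3 CPM in 22Rv1. POLR3F (chr20:18467127-18484643, plus strand), a subunit of RNA polymerase III, was at 17.1, 20.2 and 20.2 against 11.7, 10.2 and 11.9 CPM in LNCaP:C4-2 and at 23.4, 24.4 and 26.4 against 11.1, 12 and 13.2 CPM in 22Rv1. Their log2 fold changes lay between -0.65 and -0.76 in LNCaP:C4-2 and between -0.66 and -1.03 in 22Rv1. PIP4K2A, a kinase of phosphoinositides, changed by -0.74 ± 0.12 and -0.7 ± 0.12, VASH2, a vasohibin, by -0.86 ± 0.13 and -0.92 ± 0.2, and PHACTR2, a regulator of phosphatase and actin, by -0.65 ± 0.13 and -0.9 ± 0.12. PTPRM, a receptor tyrosine phosphatase, was at 85.2, 98.0 and 89.8 against 49.3, 59.7 and 42.1 CPM in LNCaP:C4-2. In 22Rv1, PTPRM was at or under the floor in each siMETTL3 library and at least 3.57-fold lower than with siSCR, where it stood at 0.526, 0.489 and 0.834 CPM. STK32A was at or under the floor in each LNCaP:C4-2 siMETTL3 library, at least 2.48-fold lower, and changed by -0.68 ± 0.16 in 22Rv1. ZFHX4, UST, KATNAL1, ZNF426-DT and the unnamed ENSG00000256304, ENSG00000204717 and ENSG00000254162 were the other lower genes, besides RPSAP47, H3P16 and EIF5AL1, which resemble other genes in sequence, and the mitochondrial tRNA gene MT-TL1. Counts of these last 4 are uncertain for that reason. Of the 151 higher genes, 47 were called in both lines in all 12 fits without a library, and of the 23 lower genes 13 were, among them TMEM123, COPS8, AASDHPPT, MAPK6, RRP1B, TGS1, POLR3F, PIP4K2A and VASH2. TMEM123 was the only one of the 174 shared genes that was also called for the difference, and 18 of the 174 passed an unadjusted p under 0.05 for it.

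**Figure D4:**
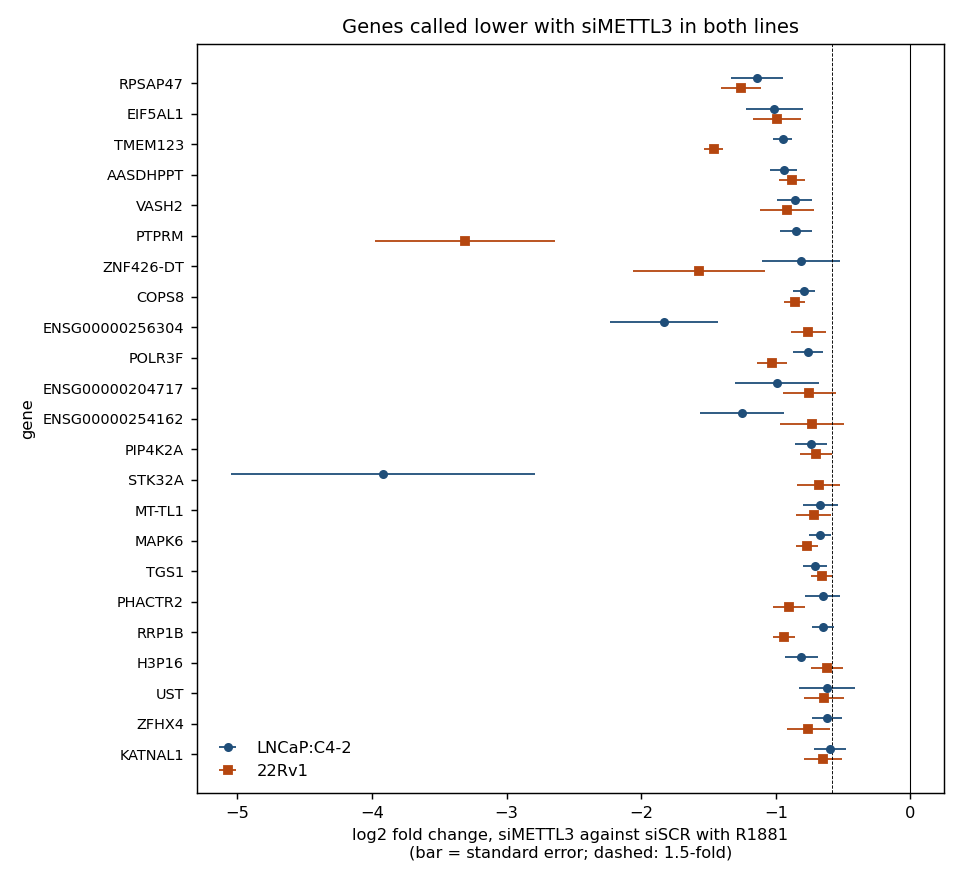
Log2 fold change with siMETTL3 against siSCR with R1881 for the 23 genes lower in both lines, in LNCaP:C4-2 (circles) and 22Rv1 (squares), with bars of 1 standard error and the 1.5-fold limit dashed. In 16 of the 23 genes the bars of circle and square meet, while TMEM123 sits lower in 22Rv1 (-1.46 against -0.95).

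The 3′ untranslated regions (UTRs) of some lowered genes share a 7-base run, which was chosen in an earlier examination of these data because it marked the strongest falls in vehicle-treated 22Rv1. It supports nothing on its own and is shown because GNB1 and TMEM123, the genes that fell further in 22Rv1, both hold it. The letters searched were CCGTACT, in capitals below, within the 3′ UTRs of GENCODE release 44 on GRCh38, each shown with 10 bases on either side, 5′ to 3′ on the strand of the gene.
GNB1: tcctatccaaCCGTACTaacgtggaca
TMEM123: tttcaaatacCCGTACTttgaatgtag
COPS8: ccagcacatgCCGTACTcttatatgta
PIP4K2A: gatctccctgCCGTACTgccttttcca
PHACTR2: ttttttaattCCGTACTggtatttgtg
RRP1B: accgtattcgCCGTACTaagttggttt
The 7 bases lie at chr1:1786975-1786981 on the minus strand for GNB1, at chr11:102396725-102396731 on the minus strand for TMEM123 and at chr2:237098079-237098085 on the plus strand for COPS8. For PIP4K2A they lie at chr10:22535530-22535536 on the minus strand, for PHACTR2 at chr6:143830641-143830647 on the plus strand and for RRP1B at chr21:43693796-43693802 on the plus strand. The flanking bases differ among the 6 genes.

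Of the 13967 tested genes with an annotated 3′ UTR, 191 (1.37%) held the run, and 130 (0.931%) held its reverse complement. Among the genes with the run the median log2 fold change was -0.14 in LNCaP:C4-2 and -0.22 in 22Rv1, against 0.00 and -0.01 without it. In LNCaP:C4-2, 14 of them (7.33%) were lower DEGs against 1.69% of the genes without the run, and in 22Rv1 likewise 14 (7.33%) against 0.544%. Of the 16 genes lower in both lines that have a 3′ UTR, 7 (43.8%) held it, namely TMEM123, PTPRM, COPS8, PIP4K2A, TGS1, PHACTR2 and RRP1B, and of the 126 such genes higher in both lines 1 did. Of the 17 genes with a 3′ UTR that were called for the difference, GNB1 and TMEM123 held it, and the median difference over all genes with the run was -0.06 against 0.00. The 3′ UTRs with the run were longer, with a median of 2904 against 1287 bases. Some of the genes with the run, GNB1, TMEM123, COPS8, PHACTR2 and RRP1B among them, also fell in vehicle-treated 22Rv1, from which the run was chosen. These shares therefore do not test the run. A match of these letters is a description and not a binding site.

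Base composition moved with the knockdown in both lines. In 5 equal bins of genes by GC content, from the lowest to the highest, the median log2 fold change was -0.26, -0.17, -0.01, 0.15 and 0.35 in LNCaP:C4-2 and -0.19, -0.12, -0.03, 0.10 and 0.23 in 22Rv1. The difference between the lines ran the other way, from 0.09 in the lowest bin to -0.10 in the highest. In vehicle the fold changes ran from -0.03 to 0.11 and from -0.11 to 0.13. The genes called in both lines followed the same axis, with a median GC content of 60.1% in the 151 higher genes and 44.1% in the 23 lower genes, against 48.6% over all genes tested. The 151 higher genes also had shorter exonic lengths, with a median of 1845 against 4160 bases. The 7 genes with a positive difference all lay below the median GC content (median 42%), and 8 of the 11 with a negative difference lay above it (median 50.2%). With an offset that removes a smooth trend of each library with GC content, 247 genes were DEGs in LNCaP:C4-2, 118 higher and 129 lower, so that 47.8% were higher in place of 65.2%. In 22Rv1, 295 were DEGs, 201 higher and 94 lower. The genes called in both lines then numbered 60, 48 higher and 12 lower, of which 51 (41 higher and 10 lower) were among the 174, and 60.2% of all genes had the same sign in both lines. The genes called for the difference numbered 59 with this offset, and 17 of the 18 were among them. How much of the shared change follows from base composition was not tested beyond this offset.

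**Figure D5:**
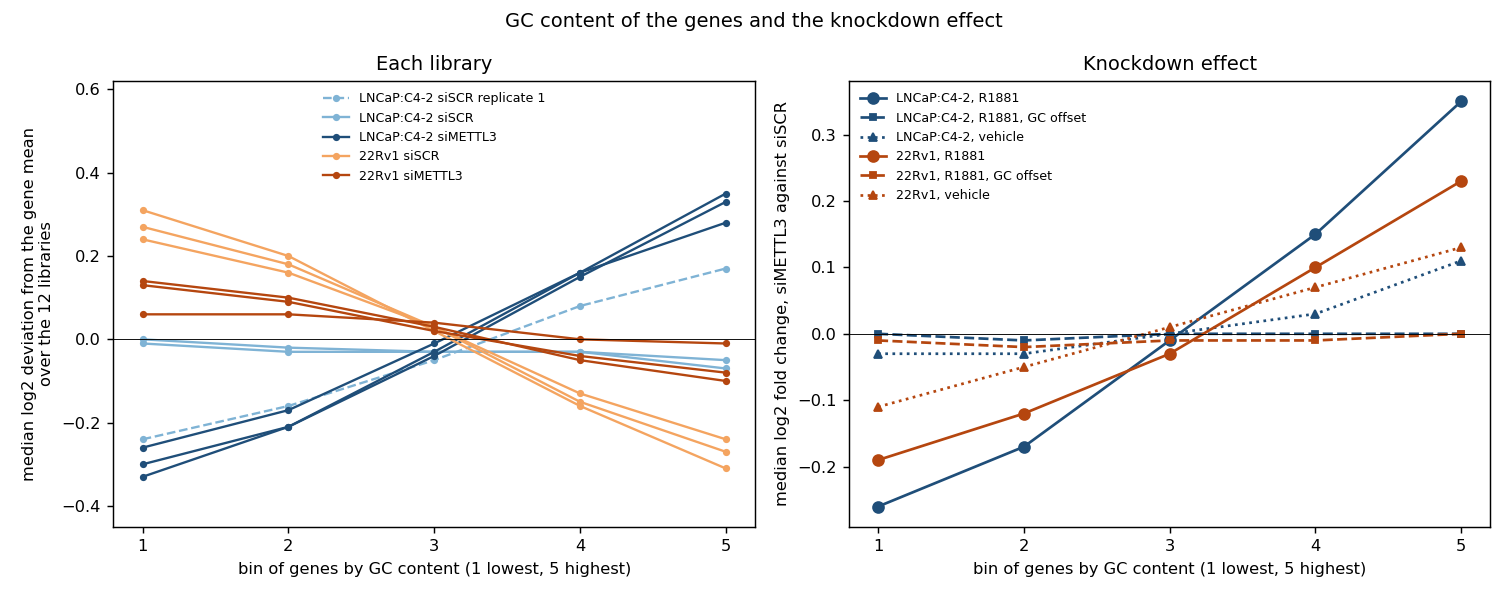
Left, the median log2 deviation of each of the 12 R1881 libraries from the gene mean, in 5 equal bins of genes by GC content, with LNCaP:C4-2 siSCR replicate 1 dashed. Right, the median log2 fold change with siMETTL3 in each bin with R1881, with R1881 and the GC offset, and in vehicle. Replicate 1 runs from -0.24 to 0.17, toward the siMETTL3 libraries, and the offset brings the R1881 lines to between -0.02 and 0.00.

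The shared genes were chosen by their changes with R1881, and their changes in vehicle were smaller. How far this follows from the choice was not tested. Of the 151 genes higher in both lines with R1881, 149 were tested in vehicle, with median log2 fold changes of 0.27 in LNCaP:C4-2 and 0.37 in 22Rv1, and 128 and 143 of them kept the sign. Only 2 were higher DEGs in vehicle LNCaP:C4-2 and none in vehicle 22Rv1. The 23 lower genes had vehicle medians of -0.3 and -0.57, with 19 and 21 of the same sign and 4 and 5 lower DEGs. AASDHPPT and RRP1B were DEGs in both lines in both settings. The vehicle libraries gave 347 DEGs (1.86%) in LNCaP:C4-2 and 12 (0.0643%) in 22Rv1, of which 3 (0.0161% of genes) were shared.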

How the data were processed

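Bulk RNA-seq of total RNA was analysed from 24 libraries, 3 for each combination of cell line, siRNA pool and treatment, with 1 count table per library. Per the labels and file headers, the authors used Trim Galore for trimming, STAR for alignment to GRCh38, and featureCounts 1.5.0 with Ensembl release 83 for read pairs per gene, and the deposited values are raw counts without normalisation. No strand option was set, so that a gene and its antisense partner cannot be told apart, and fragments that fell on several places or genes were left out by the default of the counter. The STM2457 samples and splicing were not analysed here. Of 60675 genes, 41209 were named from GENCODE release 44 and gene tables, and 19466 kept their identifier.

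The 12 R1881 libraries were fitted together in edgeR 4.0.16 (R 4.3.3) with a mean for each of 4 groups, filterByExpr (minimum count 10, minimum total 15), TMM and glmQLFit, with 8 residual degrees of freedom, and the 12 vehicle libraries in a fit of their own. DEGs had a Benjamini-Hochberg adjusted p under 0.05 and at least 1.5-fold change, and the difference between lines was called at an adjusted p under 0.05. The standard error is the absolute log2 value divided by the square root of F. Alternatives were DESeq2 1.42.0, other scalings and filters, a replicate block, a fit of all 24 libraries, a GC offset (natural spline with 5 degrees of freedom, from genes with a mean of at least 20 counts) and leaving out each library. On simulated counts of 17923 genes with 200 changed by 1 log2 unit in 22Rv1, edgeR recovered 82.5% for the difference, with 2.94% of calls false. The simulated counts had no trend with GC content, no library that stood apart and no change in LNCaP:C4-2. These rates therefore may not hold for the real libraries. Genes named were METTL3, up to 12 called for the difference in each direction, those called in opposite directions, the 14 strongest shared and up to 4 per list. Members and lists were chosen with earlier results of these data known. The labels do not say that replicates are separate cultures, so that p-values measure the spread between these samples, which may be technical. The floor of 3 counts allows for counting error only. The levels carry more than counting error, since replicate pairs with R1881 gave a chi-square of 2.21 to 30.8 per degree of freedom. Tables were made with Python 3.11.15, numpy 2.4.6, pandas 2.3.3 and scipy 1.17.1, and figures with matplotlib 3.10.9.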

Additional observations from a re-analysis of the deposited data

Results flagged for a closer look

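The effect of siMETTL3 differed between the lines with R1881 by the test of the difference itself in 18 genes. The difference, 22Rv1 minus LNCaP:C4-2 on the log2 scale, was 2.91 for F5, 1.35 for SYT4, 1.33 for PART1, 1.05 for SLC36A4, 0.93 for SEMA3C, 0.84 for GUCY1A1 and 0.59 for ECI2. It was -1.42 for IGFBP3, -1.27 for TUBA1A, -0.99 for S100P, -0.98 for MEX3B, -0.72 for PLEKHH1, -0.71 for ARHGEF10, -0.71 for AHNAK, -0.69 for LAMA3, -0.6 for GNB1, -0.56 for ESRP1 and -0.51 for TMEM123. In SORL1 every siMETTL3 library lay above every siSCR library in LNCaP:C4-2 and below every one in 22Rv1, and its difference of -1.34 was tested and did not pass (adjusted p = 0.0544, edgeR's quasi-likelihood test). That difference did pass with DESeq2 (adjusted p = 0.00464) and with the GC offset (edgeR's adjusted p = 0.0216).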

How the results depend on the processing

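The number of genes called for the difference between the lines with R1881 was 18. It was 184 with DESeq2, 173 without a filter on low counts, 59 with the GC offset, 2 at an adjusted p under 0.01, 1 with the 1.5-fold limit inside the test (glmTreat), and 2 to 857 when a library was left out, with 857 without LNCaP:C4-2 siSCR replicate 1. The LNCaP:C4-2 DEGs numbered 946, against 247 with the GC offset, 4544 without a fold limit, 520 from its 6 libraries alone and 480 to 2063 when a library was left out. The 22Rv1 DEGs numbered 524, against 257 with all 24 libraries, 295 with the GC offset, 2520 without a fold limit and 248 to 697 when a library was left out. The shared genes numbered 174, against 56 with all 24 libraries, 60 with the GC offset, 1549 at an adjusted p alone and 101 to 332 when a library was left out. The GC offset joined with leaving out LNCaP:C4-2 siSCR replicate 1, chosen after seeing the data, gave 303 genes for the difference and 555 DEGs in LNCaP:C4-2. The METTL3 difference passed with DESeq2 (-0.61), without a filter (-0.6), with the GC offset (-0.66) and with the offset and that library left out (-0.63), and ran from -0.68 to -0.54 when a library was left out, passing without LNCaP:C4-2 siSCR replicate 1.

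In vehicle the difference was called for 15 genes, against 196 with DESeq2, 9 with library size alone, 222 without a filter, 5 with at least 10 counts in every library, 89 with all 24 libraries, 500 with the GC offset and 0 to 86 when a library was left out. The dependence of the difference on R1881 was called for 0 genes, against 3 with DESeq2, 38 without a filter and 0 to 1 when a library was left out. The causes of these changes were not tested. Over 130 genes followed in 21 other fits of the R1881 libraries, no value that passed the test changed direction. Values that had not passed did so, among them, with the GC offset, SLC36A4 and GNMT in LNCaP:C4-2 (0.04 and -0.24) and ELL2, B2M, TK1 and EPHA7 in 22Rv1 (0.14, 0.02, -0.12 and 0.19). Of the 216 values of the 18 differing genes with a library left out, 76 kept the call. The order of shared against differing genes also turned with the GC offset joined with the block (62 against 80) or with the library left out (123 against 303).

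Same-numbered libraries did not deviate together throughout, with correlations across genes of 0.276, -0.132 and 0.232 in LNCaP:C4-2 and 0.096, -0.03 and -0.001 in 22Rv1, and not every library correlated best with its own number, so the numbers were not taken as a pairing. With the replicate number as a block, 45 genes were called for the difference with R1881, 2 in vehicle and 1 for the dependence on R1881. With the block and the GC offset, chosen after seeing the data, the counts were 80 for the difference, 257 in LNCaP:C4-2, 291 in 22Rv1 and 62 shared, and the METTL3 difference was -0.66.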
